A study of Rattus norvegicus with 6 samples.

Results

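miR-29a, miR-29b and miR-29c make up the miR-29 family, a group of small RNAs best known as repressors of collagen and other matrix genes. Their levels were taken from TaqMan cards, plates of small wells that each run a PCR for a different small RNA, and the members were found by assay name after the assay number was removed. The card held 375 miRNA assays, and 3 of them, mmu-miR-29a, mmu-miR-29b and mmu-miR-29c, were of this family. The study compared cardiomyocytes purified from hearts of 2-month Wistar-Kyoto rats (Myocyte, 3 sets of values) with the round, loosely attached cells that such myocytes give rise to in culture (myocyte-derived cells, MDC, 3 sets). No gene was altered in either group. The labels give both groups 2 weeks of culture in medium rich in mitogens, whereas the text of the study describes the myocytes as fresh. Its methods name basic FGF and TGF-β3 as additions to the medium. MDCs were collected by gentle pipetting from cultures of purified myocytes, not from a genetically marked lineage, and the number of animals behind a sample is not given.

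A miRNA guides a protein complex to messenger RNAs that pair with its seed (bases 2 to 8 of the mature strand), and these are then translated less or degraded. miR-29 pairs with messages of fibrillar collagens, elastin and fibrillin and, as known from human cells, of the DNA methyltransferases DNMT3A and DNMT3B. In the mouse heart, miR-29 is known to be more abundant in fibroblasts than in myocytes and to fall beside an infarct, and TGF-β lowers it in cultured cardiac fibroblasts. No collagen message was measured on these cards.

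The mature strands are shown because the 3 assays read closely related molecules. All 3 members matched a rat entry of RefSeq (GRCr8), and they are printed 5′ to 3′ with the seed in capitals.
mmu-miR-29a: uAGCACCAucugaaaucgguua
mmu-miR-29b: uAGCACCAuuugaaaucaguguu
mmu-miR-29c: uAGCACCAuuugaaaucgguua
The seed AGCACCA was the same in all 3 and was found in 3 of 693 mature rat miRNA names, which were these members. Counted from the 5′ end of the member named first, miR-29a and miR-29c differed by 1 substitution, C10U, over 22 bases. From miR-29b to miR-29c there were 3 (A18G, G21U and U22A) and from miR-29b to miR-29a 4 (U10C, A18G, G21U and U22A), and miR-29b was longer, with 23 bases. The 3′ part in which miR-29b differs is known from human cells to carry it into the nucleus. Whether the assays of miR-29a and miR-29c, which are told apart by 1 base, read each other's template was not tested.

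The family comes from 2 clusters. In GRCr8, Mir29a (mature strand at chr4:60617968-60617989) and Mir29b1 (chr4:60618342-60618364) lie on the minus strand, 291 bases apart and within 460 bases. The nearest protein-coding genes are Klf14, 93669 bases away, and Mkln1, 320824 bases away. Mir29b2 (chr13:109098882-109098904) and Mir29c (chr13:109099412-109099433) lie on the plus strand, 447 bases apart and within 616 bases. This cluster overlaps the long noncoding RNA gene LOC102550527, and the nearest protein-coding gene is Cd46, 4675 bases away. The table used for the genes gives no exons, so their place within LOC102550527 is not stated. The hairpins of the 2 miR-29b genes are printed because they differ outside the mature strand, which is in capitals.
Mir29b1: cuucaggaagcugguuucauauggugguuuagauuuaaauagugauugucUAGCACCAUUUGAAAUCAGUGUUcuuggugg
Mir29b2: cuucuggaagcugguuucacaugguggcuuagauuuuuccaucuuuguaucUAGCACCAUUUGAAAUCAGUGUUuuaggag
The mature strands of the 2 genes are the same. The miR-29b assay therefore reads the product of both clusters, while miR-29a comes from the chromosome 4 cluster and miR-29c from the chromosome 13 cluster.

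A Ct is the PCR cycle at which a well passes the fluorescence threshold, so that a template present at 2 times the amount crosses it about 1 cycle sooner. Of the 375 miRNA assays, between 201 and 212 gave signal in a set, with a median Ct between 23.1 and 25.0, and the number of molecules behind a Ct is not known. The wells with signal were identical in Myocyte 2 and Myocyte 3 and identical among the 3 MDC sets, and inside each of these blocks the U6 wells had the same order. Such sets were counted as 1 sample, which left 2 myocyte samples and 1 MDC sample. The sources conflict on what the sets are. The design text deposited with the data has RNA from 3 batches of each cell type, which would make every set a sample of its own, whereas the methods name 2 biological and 2 technical repeats, and neither says which set is which. The values with all 6 sets as separate samples are therefore given too. The p-values of the merged samples measure only the spread between the 2 myocyte samples, which may be technical, and hold no spread among MDC cultures. Cardiomyocyte markers fitted the Myocyte label, with a summed level (the log2 of their added amounts relative to the U6 control) between 4.32 and 4.57 in myocyte sets and between −8.09 and −7.30 in MDC sets, and of these miR-208 and miR-208b had no signal in MDCs. miRNAs taken as markers of other cells had signal as well. The study itself reported no non-myocyte antigens in its purified myocytes by immunostaining and RT-PCR, which read protein and messenger RNA, not miRNA. The summed level of 5 fibroblast markers was between −5.94 and −5.82 in myocyte sets, where miR-199a-5p had no signal, and between −1.81 and −0.86 in MDC sets. Endothelial markers were at −3.78 to −3.35 and −12.84 to −11.39, and leukocyte markers at −4.18 to −4.04 and −6.96 to −4.61. The leukocyte markers did not move alike. Relative to U6, miR-142-3p, miR-150 and miR-223 were lower in MDCs and miR-155 was higher, and miR-142-5p had signal in MDCs only. Fewer cells of a type and less RNA per cell cannot be told apart in such bulk samples.

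One set stood apart in its raw values. In MDC 1, 207 of 208 wells with signal (99.5%) had a Ct within 0.1 cycles of a whole number, against 16.7% to 21.6% of wells in the other 5 sets. Its Ct values differed from those of MDC 2 with an SD of 1.09 cycles across wells, control wells included, and from MDC 3 with an SD of 1.42. MDC 2 and MDC 3 differed with an SD of 0.38 and Myocyte 2 and Myocyte 3 with an SD of 0.09. Myocyte 1, counted as a separate sample, differed from Myocyte 2 with an SD of 0.49 and from Myocyte 3 with an SD of 0.52. MDC 1 was thus further from the MDC sets with which it was merged than the myocyte samples were from each other, and the merging rests on the wells with signal and the order of the U6 wells, not on these SDs. The Ct of the members in MDC 1 (16.94, 23.95 and 22.99) lay near whole cycles too. The main results below are therefore given with and without MDC 1.

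**Figure D1:**
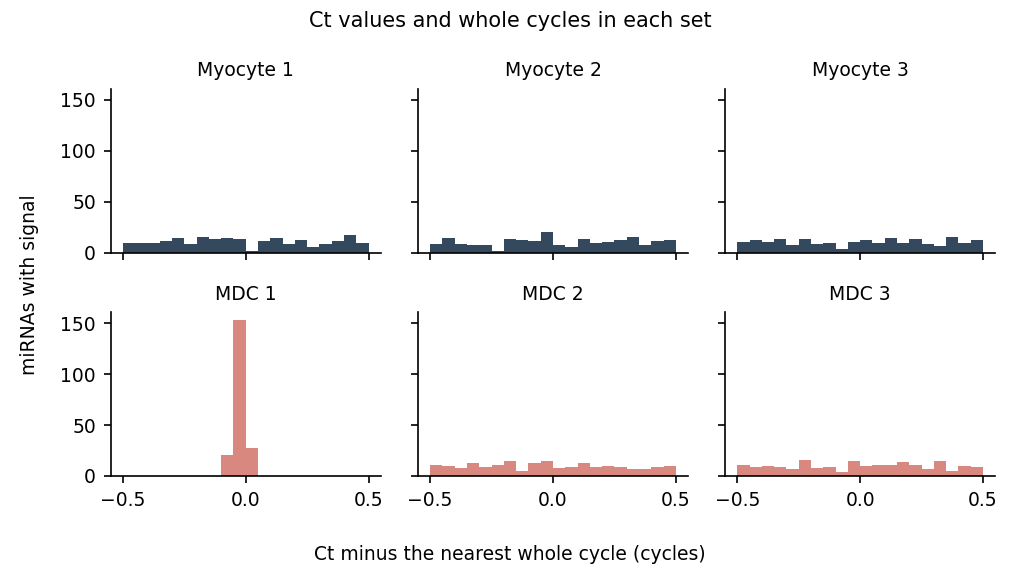
Histograms of the distance of each miRNA's Ct from the nearest whole cycle (x axis, in cycles) against the number of miRNAs with signal (y axis), 1 panel for each of the 6 sets. The values of MDC 1 pile up at 0, with 99.5% of its wells within 0.1 cycles, while those of the other sets spread over the whole range.

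The miR-29 family was lower in MDCs than in myocytes relative to U6, the small nuclear RNA used by the study as the reference, and miR-29c fell furthest. Its fall was 14.1-fold, against 2.58-fold for miR-29a and 3.39-fold for miR-29b, and without MDC 1 the falls were 7.57-fold, 1.91-fold and 1.86-fold. The fall of miR-29c was larger than that of both other members in every MDC set. Levels below are the mean Ct of the 4 U6 wells minus the Ct of the assay, on a log2 scale, and every difference is MDC minus myocyte.

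miR-29a was the most abundant member by Ct. Its Ct in Myocyte 1 to 3 was 15.53, 15.55 and 15.69, that in MDC 1 to 3 was 16.94, 15.18 and 15.96, which placed it 7th in each myocyte set and 4th or 5th in the MDC sets among the miRNAs with signal. Relative to U6 its level in Myocyte 1 to 3 was −0.85, −0.65 and −0.58, against −2.97, −1.79 and −1.53 in MDC 1 to 3. The groups did not overlap in level, but they did in raw Ct, where MDC 2 was earlier than every myocyte set. The level fell from −0.73 ± 0.17 (SD, n = 2 samples) to −2.10, a difference of −1.37 with a standard error of 0.35 (adjusted p = 2e-04, limma). Without MDC 1 the difference was −0.93 (adjusted p = 0.0105, limma).

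miR-29c, which differs from miR-29a by 1 base, was the second member in myocytes. Its Ct rose from 18.12, 18.31 and 18.50 in the myocyte sets to 22.99, 19.69 and 20.80 in the MDC sets, so that it moved from rank 18, 21 and 23 to rank 74, 49 and 50 among detected miRNAs. The groups did not overlap in raw Ct either, in contrast to the other members. The share of all miRNAs without overlap in raw Ct was not counted. Its myocyte levels were −3.44, −3.40 and −3.39, and its MDC levels were −9.01, −6.30 and −6.36. The myocyte sets lay within 0.05 of each other, and MDC 2 and MDC 3 were close as well, with MDC 1 far below. The level fell from −3.41 ± 0.03 (SD, n = 2 samples) to −7.23, a difference of −3.81 (adjusted p = 1.4e-20, limma), and without MDC 1 of −2.92 (adjusted p = 6.7e-14, limma). These p-values rest on an SD of 0.28 that limma shared across all miRNAs.

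miR-29b, the product of both clusters, was the least abundant member in every set. Its myocyte Ct values were 21.37, 21.20 and 21.38, its MDC values were 23.95, 20.80 and 21.77, and in raw Ct the groups overlapped. Relative to U6 its myocyte levels were −6.68, −6.29 and −6.27, and its MDC levels, without overlap, −9.98, −7.41 and −7.34. The level fell from −6.48 ± 0.29 (SD, n = 2 samples) to −8.24, a difference of −1.76 (adjusted p = 2.02e-06, limma). Without MDC 1 the difference was −0.89 (adjusted p = 0.0144, limma), close to that of miR-29a.

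**Figure D2:**
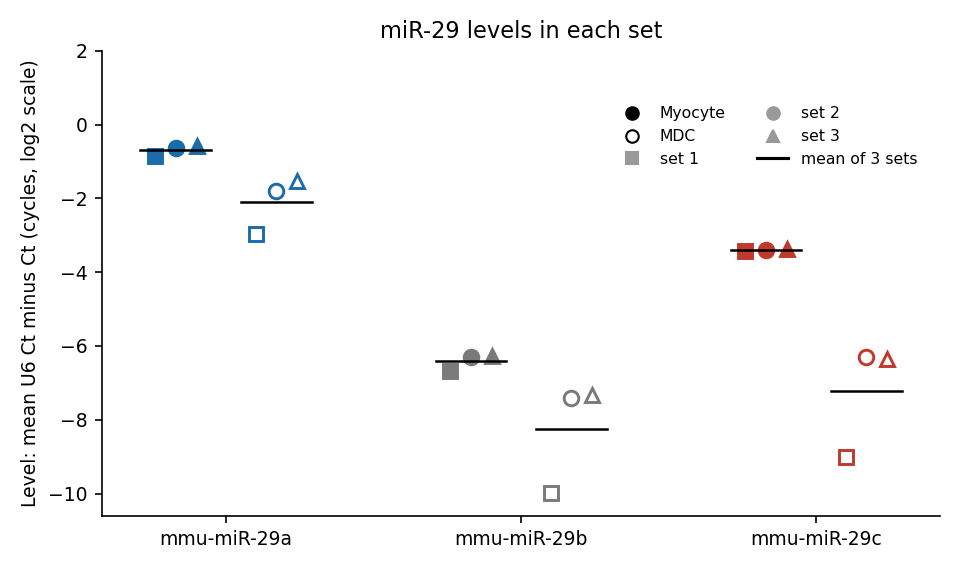
Level of each member (y axis, mean U6 Ct minus Ct, in cycles on a log2 scale) in the 3 myocyte sets (filled) and the 3 MDC sets (open), with a line at the mean of the 3 sets and the marker shape giving the set number. All MDC sets lie below all myocyte sets for each member, and MDC 1 (open squares) is the lowest set of each member.

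All 3 members passed limma in the lower direction, as did 82 of the 157 miRNAs tested (52.2%), so that a lower call by itself was common on these cards. The methods' t-test on the same merged samples gave no call after Benjamini-Hochberg adjustment, with an adjusted p of 0.151 for miR-29a, 0.177 for miR-29b and 0.0783 for miR-29c, and 0 of 157 miRNAs were called. Without adjustment it called 43 lower and 20 higher, miR-29c among the former. For all 3 members the 3 MDC sets lay below the 3 myocyte sets, which was also the case for 78 of 157 (49.7%). The median difference over all miRNAs tested was −0.80, and without MDC 1 it was −0.30. Set against this median, miR-29a was lower by a further −0.57 and miR-29b by −0.96, while miR-29c was lower by −3.01. Without MDC 1 these values were −0.63, −0.59 and −2.62. In order from the largest fall, miR-29c was at place 29, miR-29b at 62 and miR-29a at 68 of 157 (36, 73 and 72 without MDC 1). miR-29a and miR-29b thus lay near the middle of the distribution and miR-29c in its lower part. With all 6 sets taken as separate samples the differences were −1.41, −1.83 and −3.82 for miR-29a, miR-29b and miR-29c (adjusted p = 0.021, 0.0184 and 7.14e-05, limma).

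**Figure D3:**
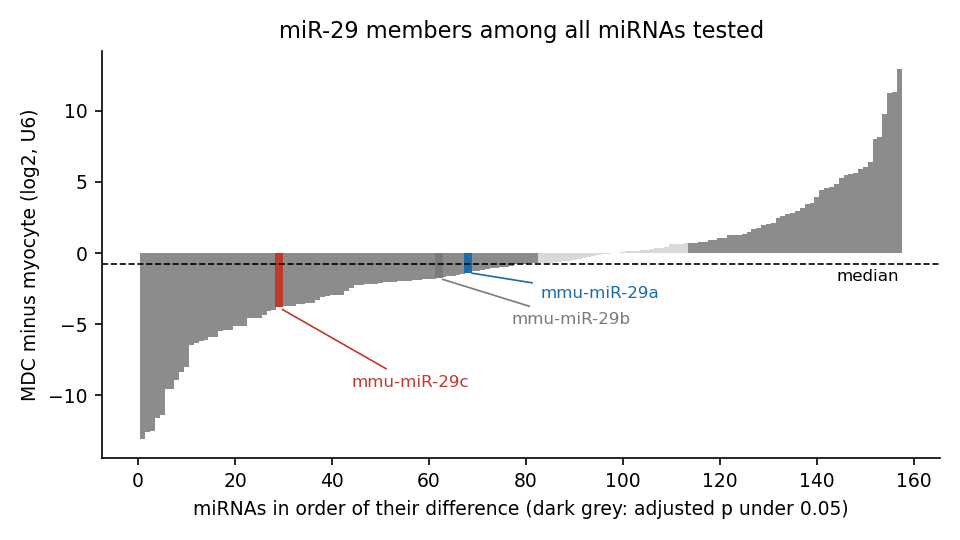
Difference between MDC and myocyte levels (y axis, log2 relative to U6) of the 157 miRNAs tested, in order (x axis), with the members coloured, adjusted p under 0.05 in dark grey and the median dashed. miR-29c, at −3.81, stands well below the median of −0.80, and miR-29a and miR-29b, at −1.37 and −1.76, are closer to it.

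The 2 clusters were compared through the distance between members within a set, which no normalizer enters. This addresses whether the product of the chromosome 4 cluster alone (miR-29a), that of the chromosome 13 cluster alone (miR-29c) and that of both (miR-29b) moved together. The Ct of miR-29c was later than that of miR-29a by 2.59, 2.75 and 2.81 cycles in myocytes and by 6.05, 4.51 and 4.84 cycles in MDCs. The distance grew in every MDC set, with no overlap between the groups. Its mean went from 2.69 ± 0.14 cycles (SD, n = 2 samples) to 5.13, a change of 2.45 cycles or 5.45-fold (1.99 cycles or 3.97-fold without MDC 1).

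The distance of miR-29b from miR-29a changed little, and its distance from miR-29c changed in every MDC set. Its Ct was later than that of miR-29a by 5.84, 5.64 and 5.69 cycles in myocytes and by 7.01, 5.62 and 5.81 cycles in MDCs. These ranges overlapped, of the MDC sets only MDC 1 lay over 1 cycle outside the myocyte values, and the change was 0.39 cycles (−0.04 without MDC 1). Against miR-29c the distance shrank instead, from 3.25, 2.89 and 2.88 cycles in the myocyte sets to 0.96, 1.11 and 0.97 cycles in the MDC sets. This distance varied least among the MDC sets, and it changed by −2.05 cycles or 4.15-fold (−2.03 cycles or 4.08-fold without MDC 1). The Ct values of MDC 1 lie near whole cycles, and so do its distances (6.05, 7.01 and 0.96 cycles). How far this brings its 0.96 close to the other MDC sets was not tested.

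Of the 3 distances compared, those that involve miR-29c did not overlap between the groups. How many distances between other miRNAs do so was not counted. Over all shared wells, the Ct difference between a myocyte set and an MDC set had an SD of 4.28 to 4.77 cycles. This spread is wider than the changes in these distances. An exact permutation test of 2 samples against 1, two-sided, cannot give a p below 0.333, and each distance gave that value. With the 6 sets as separate samples the smallest exact p is 0.1. miR-29c against miR-29a and miR-29b against miR-29c gave this p, 0.15 after Benjamini-Hochberg adjustment over the 3 distances, and miR-29b against miR-29a gave an exact p of 0.7. The design can thus not bring these changes past a threshold of 0.05. The SD over the 3 MDC readings was 0.81 cycles for miR-29c against miR-29a, 0.76 for miR-29b against miR-29a and 0.08 for miR-29b against miR-29c, and between the myocyte samples it was 0.14, 0.12 and 0.26 cycles. None of these SDs holds a spread among MDC cultures, and those over the MDC readings include MDC 1, whose Ct values lie near whole cycles.

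**Figure D4:**
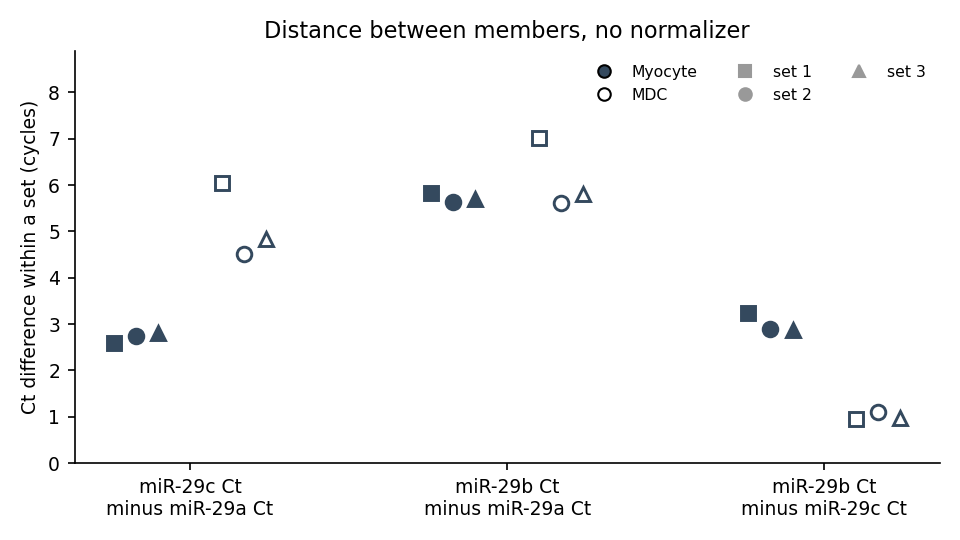
Distance between the Ct values of a pair of members within a set (y axis, cycles) for the 3 pairs, in myocyte sets (filled) and MDC sets (open), with the marker shape giving the set number. The distance of miR-29c from miR-29a was 2.59 to 2.81 in myocytes and 4.51 to 6.05 in MDCs, that of miR-29b from miR-29a overlapped, and that of miR-29b from miR-29c shrank to 0.96 to 1.11.

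The order of the members by level was miR-29a, miR-29c, miR-29b in every set. In MDCs the latter pair was separated by about 1 cycle only, a distance whose sign was the same in each reading. The efficiencies of the 3 assays are not known. A constant offset between assays cancels in the change of a distance between groups, but an effect of unequal efficiencies does not. The fold values given for these changes therefore also assume that each cycle doubled the product. If each cycle doubled the product in every assay, the family together stood at 65.8%, 74.7% and 77.9% of the U6 signal in Myocyte 1 to 3 and at 13.1%, 30.7% and 36.5% in MDC 1 to 3. Under the same assumption miR-29a made up 84.5% to 86.1% of the family in myocyte sets and 94.0% to 97.8% in MDC sets. The share of miR-29c went from between 12.3% and 14.0% to between 1.48% and 4.13%, and that of miR-29b was between 1.48% and 1.71% and between 0.759% and 1.91%. The family sum therefore mostly followed miR-29a, while its miR-29c part shrank in all MDC sets.

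How far each member fell depended on the reference, and the reference RNAs themselves moved apart. Of the other endogenous controls, snoRNA135 differed from U6 by −0.13 between the groups, Y1, a small cytoplasmic RNA, by −4.49 and the small nucleolar RNA U87 by −14.09, and snoRNA202 gave no signal. With snoRNA135 in place of U6 the differences were −1.24, −1.63 and −3.68 for miR-29a, miR-29b and miR-29c (adjusted p = 0.00812, 0.000471 and 7.85e-14, limma), and without MDC 1 −1.09, −1.05 and −3.08. With Y1 or U87 all 3 members turned higher in MDCs. Against Y1 the differences were 3.12, 2.73 and 0.68, the last of which did not pass (adjusted p = 0.282, limma), and against U87 they were 12.72, 12.33 and 10.28. With the mean of snoRNA135, Y1 and U87 they were 4.87, 4.48 and 2.42. The median over all miRNAs was then 3.69 with Y1, 13.29 with U87 and 5.44 with the mean of the 3 controls. The members lay below it by the same amounts as with U6, since a reference shifts all miRNAs of a set alike. These references thus add nothing on where the members lie against the median.

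Relative to the mean of all detected miRNAs, the differences were −0.46 for miR-29a (adjusted p = 0.176, limma), −0.86 for miR-29b (adjusted p = 0.011) and −2.91 for miR-29c (adjusted p = 1.52e-15). With that reference 65 miRNAs were lower and 64 higher, against 82 and 44 with U6. Without MDC 1 miR-29a and miR-29b did not pass (−0.41 and −0.37, adjusted p = 0.224 and 0.272, limma), and miR-29c kept a difference of −2.40. In raw Ct, with no reference, the differences were −0.45, −0.85 and −2.90, and without MDC 1 they were 0.00, 0.04 and −1.99. miR-29c was thus lower with U6, with snoRNA135, with the mean of all detected miRNAs and in raw Ct, with and without MDC 1, whereas with the mean of all miRNAs and in raw Ct miR-29a did not pass (adjusted p = 0.0805 in raw Ct, limma) and miR-29b passed only with MDC 1 included.

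**Figure D5:**
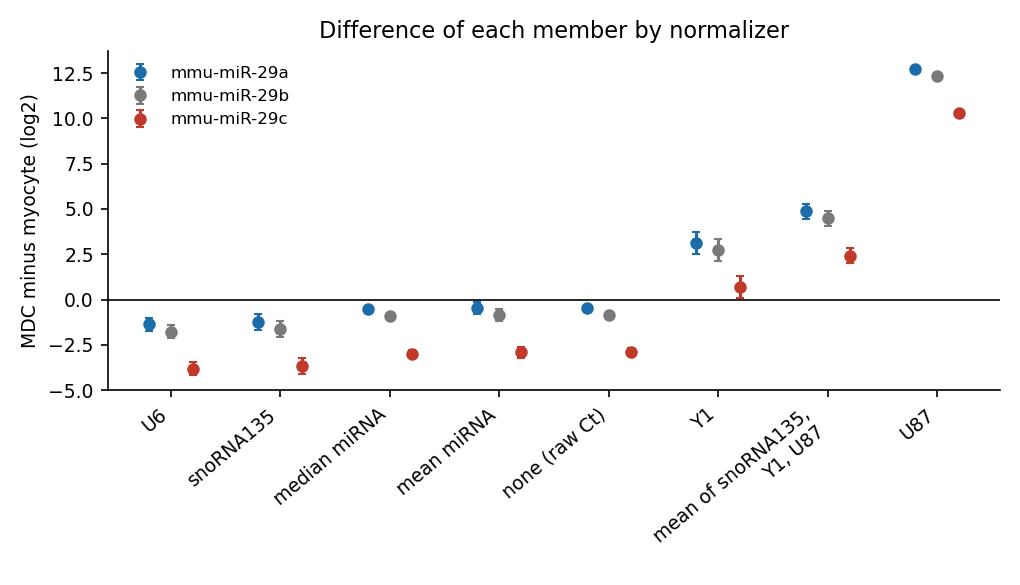
Difference between MDCs and myocytes (y axis, log2) of each member with 8 references (x axis), with bars of 1 standard error from limma. The direction of all 3 turns with Y1, with U87 and with the mean of snoRNA135, Y1 and U87. A reference shifts every member of a set alike, so miR-29c lies below both other members by the same distances whatever the reference.

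Other miRNAs tied to fibrosis and matrix genes were read as context. Of 9 miRNAs known to restrain fibrosis, 8 were on the card, and all 8 were lower in MDCs (52.2% of all miRNAs tested were), also without MDC 1. Their median difference was −4.84, against −0.80 for all miRNAs tested (−4.33 and −0.30 without MDC 1). The muscle miRNAs miR-133a and miR-133b, of which miR-133a limits connective tissue growth factor (CTGF) in the rat heart, had differences of −12.59 and −11.41. miR-30c and miR-30a, of which miR-30c also restrains CTGF, were at −6.48 and −6.08. miR-101a, miR-26b, miR-26a and miR-24 followed at −3.60, −3.54, −2.46 and −1.82, so that miR-29c lay within the range of this list, and miR-29a and miR-29b near its least changed member. Of this list, miR-133a and miR-133b are themselves among the cardiomyocyte markers, which fell in MDCs. The part of these shared miRNAs in the count was not tested.

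Of 6 miRNAs known to promote fibrosis, 5 were on the card, and 4 were tested. miR-21, which in mouse heart fibroblasts relieves a brake on growth factor signalling, rose by 4.46, and miR-155, an inflammatory miRNA, rose by 2.77 (44 of 157 miRNAs, or 28.0%, were higher). miR-34a, a miRNA induced by p53, was lower at −1.17 (adjusted p = 0.0014, limma), and without MDC 1 its difference was −0.28 and its call was lost. miR-125b-5p had a difference of 0.22 (adjusted p = 0.564, limma). miR-208, encoded in a cardiac myosin heavy chain gene, had signal in myocytes only, and with its missing Ct values set at 40 its difference was at most −18.49. The median of the 4 tested was 1.50, and 2.00 without MDC 1, and it leaves out miR-208, which had the largest change of the list. The members of this list did not move alike. The summed level of fibroblast markers, which include miR-21, was higher in MDCs, and the part of the shared miR-21 was not tested.

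The miRNAs whose levels over the 6 sets were most like those of a member were found by the root mean square difference after each miRNA was centred on its own mean, among 156 others. For miR-29a they were miR-324-5p (0.12), miR-128a (0.12) and miR-138 (0.13), with miR-29b at place 32 (0.49) and miR-29c at place 90 (1.30). For miR-29b they were miR-142-3p (0.23), miR-186 (0.31) and miR-34a (0.32), with miR-29a at place 16 and miR-29c at place 55. For miR-29c they were rno-miR-190b (0.24), miR-194 (0.28) and miR-26b (0.29), with miR-29b at place 33 and miR-29a at place 49. The nearest neighbour of each member was therefore outside the family. These distances share the card, the U6 reference and the low values of MDC 1, and they are given as a description.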

How the data were processed

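The authors isolated total RNA with the mirVana PARIS kit, reverse-transcribed and pre-amplified it with MegaPlex primer pools, ran TaqMan rodent cards on an Applied Biosystems real-time system and took Ct values with SDS software, and the threshold and baseline settings are not given in the sources used here. Deposited values are Ct (PCR cycles), with another deposited table of Ct minus mean U6 Ct, which differed from the same computation by at most 5e-05 cycles. A well without signal is undetermined in Myocyte 1 and 40 elsewhere, and both were read as no signal. Labels and methods also differ on the animals' age, the amount of RNA and the number of repeats.

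Levels of the 157 miRNAs with signal in every set went into limma 3.58.1 (R 4.3.3), with Benjamini-Hochberg adjustment over all 157 and a threshold of 0.05. The MDC sample, being alone, took its spread from the myocyte samples. The fit was tested on simulated data. Distances between members were compared with exact permutation tests over samples. Named are the members, the fibrosis lists (from general knowledge), the controls, the markers and the 3 miRNAs most like each member. Members and lists were chosen with earlier results of these data known. Alternatives were other references, limits of Ct 35 and 32, missing values at 40, trend and robust moderation, 6 separate sets, a replicate block, the methods' t-test, each MDC reading alone and leaving out each set. References combined with leaving out MDC 1 were added after seeing the data.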

Additional observations from a re-analysis of the deposited data

How the results depend on the processing

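snoRNA135 or the median of all detected miRNAs as the reference, limits of Ct 35 and 32, missing values at 40, trend and robust moderation and the authors' table kept all 3 members lower at an adjusted p under 0.05, as did each MDC reading alone and leaving out each set, except that the comparison without Myocyte 1 has 1 sample a group and no test. Between sets with the same replicate number, deviations from the group means had correlations of 0.12, −0.08 and 0.24. Whether the numbers pair the sets cannot be decided from these values, since the sets counted as 1 sample may be repeat readings. With the replicate block on 6 sets the differences were −1.41, −1.83 and −3.82 (adjusted p = 0.0185, 0.01 and 0.000112, limma), all called. The direction turned with Y1, U87 and the mean of the other controls for miR-29a (3.12, 12.72, 4.87), miR-29b (2.73, 12.33, 4.48) and miR-29c (0.68, 10.28, 2.42), so that 0 members were lower and 2, 3 and 3 were higher. Over all miRNAs these references gave 16 lower and 120 higher, 0 and 157, and 10 and 140, against 82 and 44. miR-29a lost its call with the mean of all detected miRNAs (−0.46) and with no reference (−0.45). Without MDC 1 as well, these gave −0.41 and 0.00 (0.0018) for miR-29a and −0.37 and 0.04 (0.0425) for miR-29b, none called, and with no reference the sign turned. The cause was not tested.

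With the methods' t-test on merged samples miR-29a (−1.37) and miR-29b (−1.76) were not called, miR-29c (−3.81) was called only without adjustment, and 1 member was lower without and 0 with adjustment (over all miRNAs 43 lower and 20 higher, and 0 and 0). On 6 sets miR-29b (−1.83) was not called either way and miR-29a (−1.41) only without adjustment, which left 1 member lower with adjustment. With missing values at 40, 240 miRNAs were tested, 113 lower and 80 higher.

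Of the antifibrotic list 4, 0 and 2 were lower and 2, 8 and 4 higher with Y1, U87 and the mean of the other controls, against 8 and 0. Of the profibrotic list 4 were then higher in each case. Its 1 lower call (miR-34a) became 0 with 6 sets, the replicate block, Y1, U87, the mean of the other controls, the mean and the median of all miRNAs, no reference, and MDC reading 2 or 3 alone, and 2 with missing values at 40. Leaving out each set gave 0 (without MDC 1) to 1.

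As changes in level, miR-29a minus miR-29c was 3.36 and miR-29b minus miR-29a −1.26 with MDC reading 1 alone (2.45 and −0.39 with all readings), and miR-29b minus miR-29c was 1.96 with MDC reading 2 alone (2.05). Leaving out 1 set in turn gave 1.99 to 2.76, −0.66 to 0.04 and 1.87 to 2.10. The range of the miR-29b and miR-29a change spans 0 and turns positive without MDC 1. Counting error could not be given for Ct values.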
